A study of Mus musculus with 60 samples.

Results

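At its posterior end the growing mouse embryo carries the tailbud, from which the trunk and then the tail are built. It holds progenitors that feed the neural tube and the paraxial mesoderm, and the paraxial mesoderm is cut into somites at regular intervals, so the number of somites serves as a clock of development. During this period the tissue is known to hand over from trunk to tail formation and to express progressively more posterior Hox genes. The comparison described here is that of wild-type mouse tailbuds with 16 somites against wild-type tailbuds with 12 somites, 4 embryos of each, which shows the normal change of the tissue in the time it takes to add 4 somites.

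These 8 libraries, each of total RNA from the tailbud of 1 embryo, were chosen by genotype and somite number in their titles and are part of 27 tailbud libraries in a series of 60 samples. Another 8 wild-type tailbuds, 4 with 13 and 4 with 14 somites, show the levels in between. Mutant tailbuds, described in the series as carrying a substitution in JARID2, an accessory subunit of the Polycomb repressive complex PRC2, are used as separate embryos of the same stages, 2 with 12 and 5 with 16 somites. The labels give no strain, sex, litter or age in days for the embryos, and no manipulation of the wild types. The deposited tables identify transcripts by Ensembl number, and the gene tables at hand matched 0 of them. Gene symbols, gene positions and sequences are therefore not given, the tissue could not be checked against its marker genes, and most transcripts are referred to by their length in bases.

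The 8 libraries held 22629915 to 24865712 estimated reads, and 47254 to 49450 of the 117135 listed transcripts had a count of at least 1. Neither the total (permutation p 1.00, exact, two-sided) nor the number of transcripts with a count (p 0.629) differed between the stages by more than the embryos did. The smallest p that 4 against 4 embryos allow in this exact permutation test is 0.0286. The tailbuds of the 2 stages were alike as a whole. The median Pearson r of log2 levels across transcripts was 0.890 between embryos of 12 somites, 0.886 between embryos of 16 somites and 0.886 between embryos of different stages. In every pair of embryos within a stage the chi-square per transcript was at least 11.8. No repeat sequencing of 1 library was at hand to compare this value with. Mean r to the own group was 0.866 in wild-type embryo 4 of 14 somites against 0.881 to 0.889 in the other 3. In mutant embryo 1 of 16 somites it was 0.824 against 0.871 to 0.876. The counts over sets of transcripts that use these 2 libraries are therefore given with and without them. Wild-type embryo 2 of 13 somites, at 0.880 against 0.894 to 0.900 in its group, had a similar gap. It was kept, and no count is given without it.

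Most of the transcriptome changed little over these 4 somites. Among the 23871 tested transcripts whose mean reached 1 CPM (reads per 1000000 reads of the library), 86.5% had a log2 change of less than 0.5 and 96.3% one of less than 1. Of the 30717 transcripts tested, 3 rose with a Benjamini-Hochberg adjusted p under 0.05 in edgeR's quasi-likelihood test, which is 0.00977% of those tested. They rose by 1.12 to 1.53 log2 units. No transcript was called lower at 16 somites (0%) by this test, where the smallest adjusted p of a falling transcript was 0.0582. Of the same 30717 transcripts DESeq2 called 37 falling and 57 rising, and limma voom with quality weights called 2 falling and 4 rising. At an unadjusted p under 0.05 there were 639 rising and 706 falling transcripts, together 1345 or 4.38%, where 1536 would be expected if nothing changed.

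**Figure D1:**
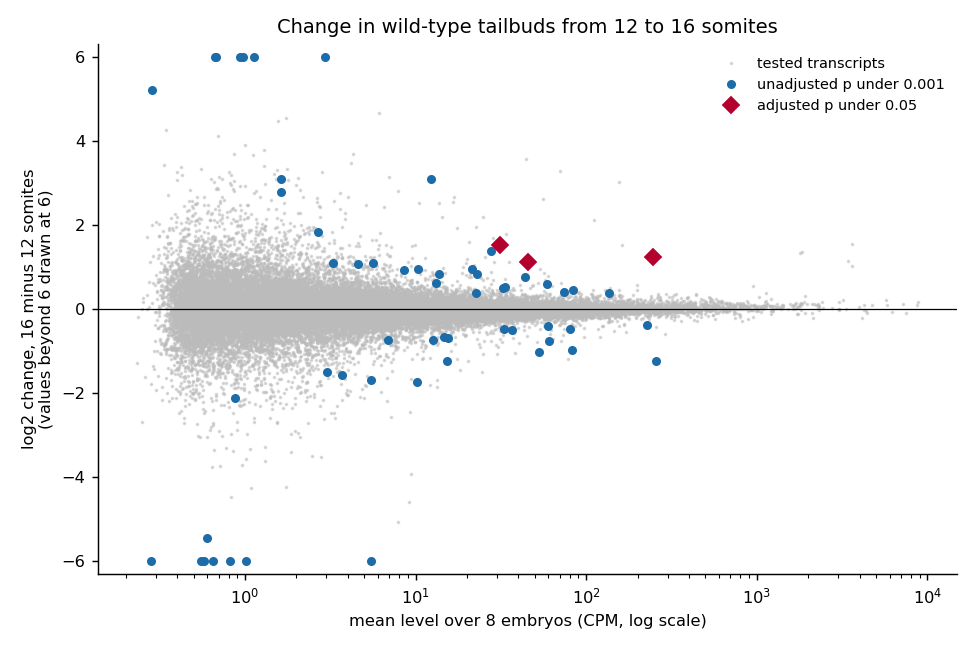
Log2 change from 12 to 16 somites in wild-type tailbuds (vertical axis, 16 minus 12) against the mean level over the 8 embryos in CPM (horizontal axis, log scale) for each of 30717 tested transcripts (grey). Blue points have an unadjusted p under 0.001 and the 3 red diamonds an adjusted p under 0.05; the scatter of grey points narrows as the level rises, and the 3 called transcripts lie above 0 at means of at least 30 CPM.

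The precision behind a change depended on the level of the transcript. The median standard error of the log2 change was 0.66 among the 6846 tested transcripts with a mean under 1 CPM. It fell to 0.25 between 3 and 10 CPM and to 0.073 among the 1763 transcripts of at least 100 CPM. The median coefficient of variation between embryos of a stage was 55.2% in the lowest class and 6.96% in the highest. These are medians of a class, and single abundant transcripts varied far more between embryos.

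The transcript with the smallest p was ENSMUST00000001699.7, 1909 bases long. The 4 embryos of 12 somites had 156, 143, 161 and 143 CPM, and the 4 embryos of 16 somites had 299, 356, 387 and 332 CPM. Every embryo of 16 somites lay far above every embryo of 12 somites. The mean was 151 ± 9.40 CPM (SD, n = 4) at the earlier and 343 ± 37.2 CPM (SD, n = 4) at the later stage. Its log2 change was 1.23 (standard error 0.094), which passed edgeR's test at an adjusted p of 0.0217. Relative to its length it rose from 80.7 ± 5.67 to 179 ± 18.0 TPM (SD, n = 4). Embryos between these stages had levels in between, with means of 202 ± 17.7 CPM at 13 and 227 ± 41.0 CPM at 14 somites (SD, n = 4). The lowest embryo of 14 somites, at 167 CPM, was embryo 4, and the other 3 had 239 to 256 CPM. A full separation of the end stages, here and below, comes with the choice by small p. It held for all 47 transcripts of at least 1 CPM with an edgeR unadjusted p under 0.001, and for 955 of all 23871.

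ENSMUST00000061745.4, of 1816 bases, followed the same course at a lower level. It stood at 31.8, 30.1, 28.2 and 26.6 CPM in the embryos of 12 somites and at 53.4, 62.3, 71.7 and 59.2 CPM in those of 16 somites. The groups did not overlap, and the embryos of 13 somites (34.6 to 41.1 CPM) and 14 somites (37.3 to 47.8 CPM) filled the gap between them. The log2 change was 1.12 (standard error 0.10; edgeR adjusted p 0.0466). Per length this was a rise from 16.9 ± 1.75 to 34.8 ± 3.97 TPM (SD, n = 4).

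The third called transcript, 1111 bases long, had 18.6, 16.2, 17.0 and 13.9 CPM at 12 somites and 37.0, 54.6, 46.8 and 46.4 CPM at 16 somites. The stages were again separate, and the embryos of 14 somites were spread from 25.8 to 54.8 CPM and overlapped those of 16 somites. Its log2 change of 1.53 (standard error 0.15) was the largest of the 3 (edgeR adjusted p 0.0466). Per length it rose from 16.6 ± 2.41 to 45.2 ± 6.58 TPM (SD, n = 4), so at 12 somites it was as abundant as the transcript of 1816 bases and at 16 somites its mean was higher. Leaving out 1 embryo ended all 3 calls in 7 of 8 cases. The 3 remained called without embryo 1 of 16 somites, where 7 of 32270 transcripts passed.

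**Figure D2:**
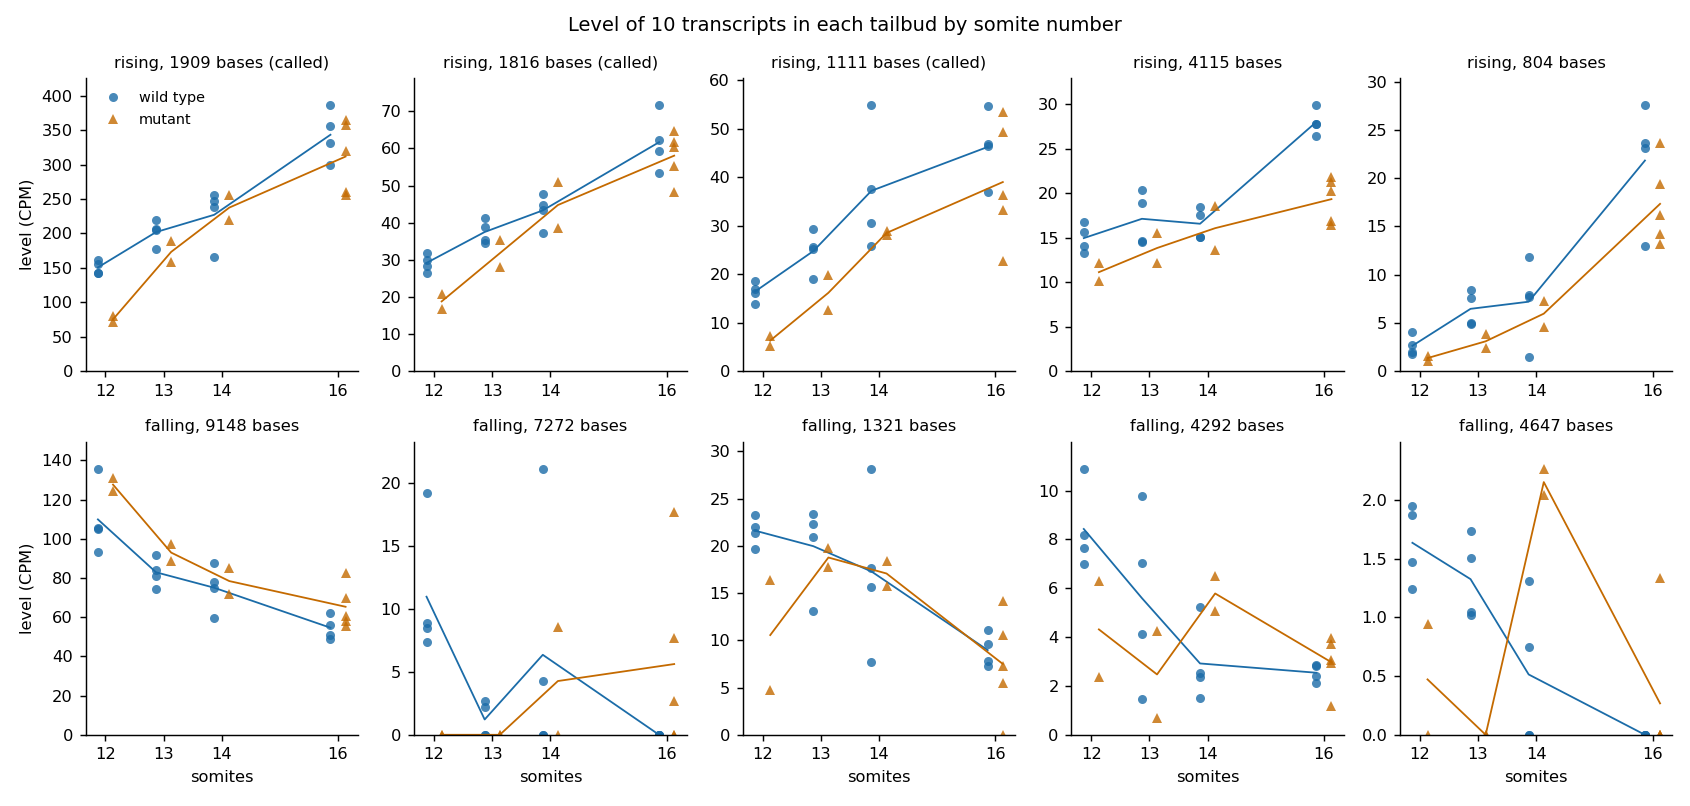
Level in CPM (vertical axis, from 0) against somite number (horizontal axis) of the 5 rising (upper row) and 5 falling (lower row) transcripts with the smallest p, one panel per transcript, headed by its length. Circles are wild-type embryos, triangles are mutant embryos and lines join the stage means; the 3 called transcripts climb through 13 and 14 somites in both genotypes, the transcript of 9148 bases declines in both, and those of 7272 and 4647 bases are at 0 in scattered embryos.

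The next rising transcripts in order of p did not pass the adjusted threshold. One of 4115 bases stood at 14.1, 13.3, 15.7 and 16.7 CPM at 12 somites and at 26.5, 27.8, 27.8 and 29.9 CPM at 16 somites, with an adjusted p of 0.0582 in edgeR's test. Its course was a late step, since the embryos of 13 and 14 somites, at 14.5 to 20.4 CPM, stayed near the level of 12 somites. One of 804 bases had the widest ratio among the 5 rising transcripts with the smallest p. It stood at 4.10, 1.78, 2.66 and 1.97 CPM at 12 somites against 13.0, 27.6, 23.1 and 23.7 CPM at 16 somites, 8.30-fold in the means (edgeR adjusted p 0.0582). Its embryos of 13 somites (4.88 to 8.43 CPM) were all above those of 12 somites, while embryo 4 of 14 somites, at 1.42 CPM, was below every embryo of 12 somites. Without it the mean at 14 somites was 9.12 ± 2.33 CPM (SD, n = 3).

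Among falling transcripts ENSMUST00000055535.8, of 9148 bases, had the smallest p. It stood at 105, 106, 93.1 and 136 CPM at 12 somites and at 62.4, 51.1, 56.2 and 48.8 CPM at 16 somites. The groups were separate, and the means of 82.9 ± 7.21 CPM at 13 and 75.0 ± 11.8 CPM at 14 somites (SD, n = 4) lay in order between them. The log2 change was -0.97 (standard error 0.11), and edgeR's adjusted p on the 8 embryos was 0.0582. When the spread was estimated from all 16 wild-type embryos, its adjusted p was 0.00855, and 7 of 36763 transcripts were called, 5 rising and 2 falling. Without embryo 4 of 14 somites in that fit 12 of 38246 were called, 9 rising and 3 falling, and the adjusted p of this transcript was 0.00845. The other 4 falling transcripts described below, with adjusted p of 0.0608 to 0.0683 on the 8 embryos, had edgeR adjusted p of 0.579 to 1.00 in the fit of the 16 embryos.

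2 falling transcripts of lower level also separated the stages. One of 1321 bases went from 21.6 ± 1.49 to 8.96 ± 1.72 CPM (SD, n = 4; edgeR adjusted p 0.0608) and one of 4292 bases from 8.43 ± 1.72 to 2.54 ± 0.357 CPM (SD, n = 4; edgeR adjusted p 0.0681). At 14 somites the transcript of 1321 bases ranged from 7.70 to 28.2 CPM, which takes in the means of both end stages. The most abundant falling transcript with an unadjusted p under 0.001 was one of 757 bases, picked out after its values were seen. It stood at 403, 359, 290 and 389 CPM at 12 somites and at 219, 134, 86.9 and 159 CPM at 16 somites, with means of 333 and 247 CPM in between. Its log2 change of -1.23 (standard error 0.24) did not pass (edgeR adjusted p 0.481).

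2 of the 5 falling transcripts with the smallest p were of another kind, present at 12 somites and without a read in any of the 4 embryos of 16 somites. ENSMUST00000017694.6, of 7272 bases, had 8.46, 8.89, 19.2 and 7.35 CPM at 12 somites. Set against a floor of 3 counts per library, which covers counting error only, it was at least 87.7-fold lower at 16 somites (edgeR adjusted p 0.0608). Its levels in other embryos followed no course: it was at 0 in 2 of 4 embryos at 13 and 2 of 4 at 14 somites, at 21.1 CPM in another embryo of 14 somites, at 0 in both mutants of 12 somites and at up to 17.7 CPM in mutants of 16 somites. The transcript of 4647 bases had 1.25 to 1.95 CPM at 12 somites and was at least 13.1-fold lower at 16 somites (edgeR adjusted p 0.0683).

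Such on and off patterns were found in both directions. Of the 30717 tested transcripts, 6 were at 0 in all embryos of 12 somites with a count in all of 16 somites, and 7 showed the reverse. These 13 passed the low-count filter only through the stage where they had counts. All had an unadjusted p under 0.001 in edgeR's test, which comes with the pattern by which they were picked, and none was called. In mutants 4 of the 6 and 2 of the 7 moved in the same direction (4 and 3 without mutant embryo 1 of 16 somites). Of all 2395 transcripts of at least 1 CPM at 0 in some of the 8 embryos, 52.8% did so, with or without that embryo. Of the 13 transcripts, 0 of either kind repeated the pattern in every mutant of 12 and 16 somites. Of the 13 transcripts 9 had a mean under 1 CPM, and at that level 2639 of 6846 tested transcripts (38.5%) had no read in at least 1 of the 8 embryos. Reads that fit several transcripts of a gene are divided by estimation, and whether such transcripts traded reads with others was not tested.

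Beyond single transcripts, the set with an unadjusted p under 0.001, a mean of at least 1 CPM and a count in all 8 embryos held 43 transcripts, 25 rising and 18 falling. This threshold was chosen after the values were seen, and the set is described by counts without a test. Its members were 627 to 9148 bases long, with a median of 1909, against a median of 2258 for the 21476 transcripts of that level with a count in all 8 embryos. Log2 changes ran from -1.73 to 3.10, and 11 rising and 7 falling members changed by at least 1 unit. Embryos of other stages and of the mutant took no part in choosing these transcripts.

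The wild-type embryos of 13 and 14 somites were the first such group. From 13 to 14 somites 26 of the 43 (60.5%) moved in the direction of their change from 12 to 16 somites, against 45.1% of all 21476. Without embryo 4 of 14 somites, whose library had the lowest mean r of its group, it was 33 of 43 (76.7%) against 46.8%. Embryo 2 of 13 somites, with a similar gap in mean r, enters the same step and was kept. In 32 of the 43 the means of both middle stages lay between those of 12 and 16 somites (74.4%, against 10.7% of all), and in 23 the 4 stage means were in full order (53.5%, against 5.24%). Without embryo 4 of 14 somites these counts were 37 (86%, against 12.6%) and 30 (69.8%, against 6.51%). These last counts are raised by the choice of transcripts with a wide gap between the end stages. The median step in the direction of change was 0.34 log2 units from 12 to 13 somites, 0.099 from 13 to 14 and 0.52 from 14 to 16 (0.13 and 0.44 without that embryo), where the first and last steps use the embryos that chose the set.

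**Figure D3:**
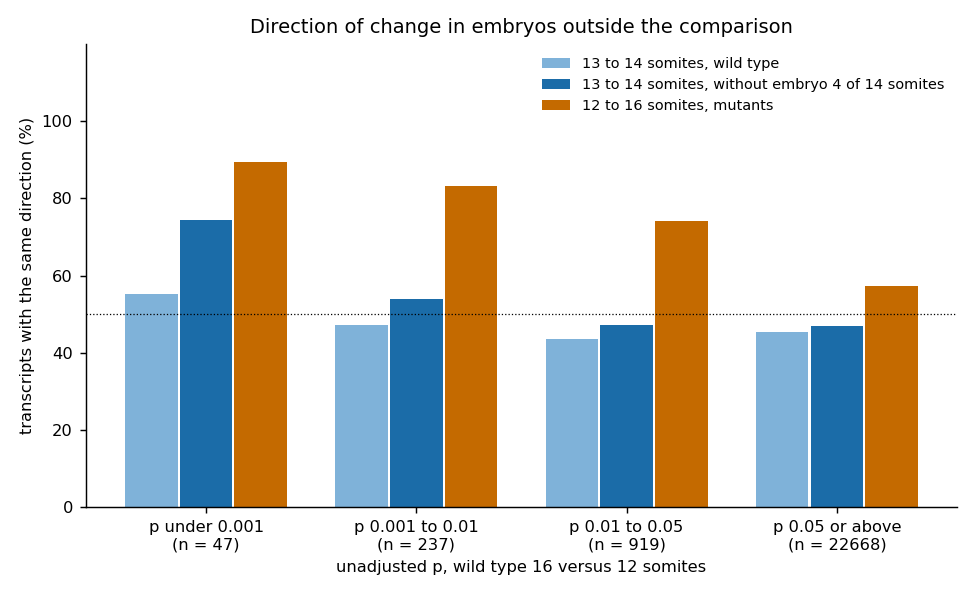
Share of transcripts whose mean reached 1 CPM (vertical axis, percent) that moved in the direction of their wild-type change from 12 to 16 somites, in classes of the unadjusted p of that change (horizontal axis, with the number of transcripts). Light blue bars are the step from 13 to 14 somites in wild type, dark blue bars the same without embryo 4 of 14 somites and orange bars the change from 12 to 16 somites in mutants; the dotted line marks 50%, and the orange bars decline from 89.4% to 57.4% with rising p.

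The mutant embryos were the second group, and they share no library with the wild-type comparison. Of the 43 transcripts 40 (93%) moved in the same direction from 12 to 16 somites in mutants, against 59% of all 21476 with a count in all 8 embryos. Without mutant embryo 1 of 16 somites it was 42 of 43 (97.7%) against 57%. The 25 rising members had a median log2 change of 0.94 in wild type and 1.29 in mutants, and the 18 falling members one of -0.75 in wild type and -0.55 in mutants. Without mutant embryo 1 these medians in mutants were 1.20 and -0.50. Over all transcripts that reached a mean of 1 CPM the share with the same direction declined with p, from 83.1% of the 237 with p between 0.001 and 0.01 to 74.1% of the 919 with p between 0.01 and 0.05. The test of this change in mutants called 22 of 45394 transcripts (0.0485%), of which 17 rose (0.0374%) and 5 fell (0.011%). Without mutant embryo 1 it called 25 of 45107, and 20 of the 25 were among the 22. The 43 and these 22 had 13 transcripts in common, 30.2% of the first and 59.1% of the second, each with the same direction in both. The mutant test took its spread from all 27 libraries, which include the 8 that chose the 43. Its calls are therefore not independent of that choice, while the direction in mutants rests on the levels of the mutant embryos.

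**Figure D4:**
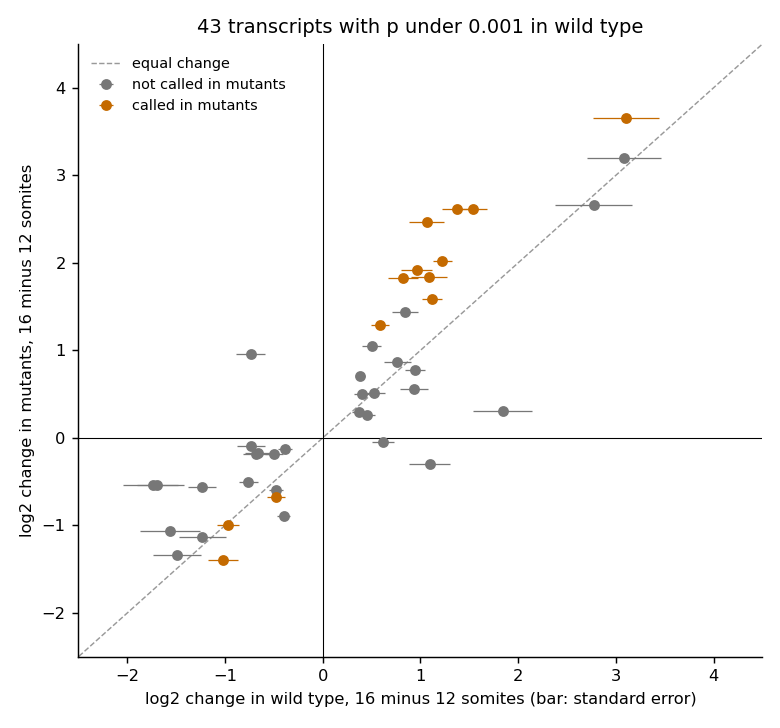
Log2 change from 12 to 16 somites in mutants (vertical axis) against that in wild type (horizontal axis, with its standard error) for the 43 transcripts with p under 0.001 in wild type and a count in all 8 wild-type embryos. Orange points were called in mutants and the dashed line marks equal change; 40 of the 43 lie in the quadrants of the same direction.

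All 3 transcripts called in wild type were also called in mutants, by the test that shares its estimate of spread with the wild types. ENSMUST00000001699.7 had 71.0 and 79.5 CPM in the mutants of 12 somites and 358, 255, 261, 320 and 365 CPM in those of 16 somites. Its log2 change in mutants was 2.02 (standard error 0.20; edgeR adjusted p 3.08e-05). Both mutants of 12 somites lay below all 4 wild types of that stage, while the ranges overlapped at 16 somites. ENSMUST00000061745.4 rose by 1.59 log2 units in mutants (standard error 0.17; edgeR adjusted p 7.93e-05), from 16.8 and 20.8 CPM to between 48.2 and 64.6 CPM. The transcript of 1111 bases rose by 2.61 log2 units with a standard error of 0.33 (edgeR adjusted p 0.000401), and that of 804 bases, not called in wild type, by 3.66 with a standard error of 0.62 (edgeR adjusted p 0.0175). Without mutant embryo 1 of 16 somites all 4 remained called, with edgeR adjusted p of 7.77e-05 to 0.0288. The transcript of 4115 bases had a log2 change of 0.78 in mutants (standard error 0.18) that did not pass (edgeR adjusted p 0.236). It stood at 10.1 and 12.1 CPM in mutants of 12 somites, 12.1 to 18.6 CPM at 13 and 14 and 16.4 to 21.8 CPM at 16 somites. Its change in mutants minus that in wild type was -0.17 log2 units (standard error 0.23; edgeR unadjusted p 0.467). Whether its course over the middle stages differed between the genotypes was not tested.

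ENSMUST00000055535.8 was called lower at 16 somites in mutants. It stood at 124 and 131 CPM in the mutants of 12 somites and at 82.6, 70.0, 60.6, 58.0 and 55.4 CPM in those of 16 somites. The groups were apart, and the log2 change was -0.996 (standard error 0.15; edgeR adjusted p 0.00691). The highest of the 5, embryo 1, was the library that stood apart, and without it the adjusted p was 0.000707 in edgeR's test. The falling transcripts of 1321 and 4292 bases had log2 changes in mutants of -0.56 and -0.54 that did not pass, with adjusted p of 0.932 and 0.894 in that test.

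Whether the change from 12 to 16 somites differed between the genotypes was tested as an interaction over all 27 libraries. edgeR called 0 of 45394 transcripts (0%), with 2030 (4.47%) at an unadjusted p under 0.05, and DESeq2 called 232 of the same 45394. For ENSMUST00000001699.7 the change was larger in mutants by 0.79 log2 units (standard error 0.24; edgeR unadjusted p 0.00313, adjusted p 1.00). For ENSMUST00000061745.4 it was larger by 0.47 (standard error 0.21; edgeR unadjusted p 0.0358, adjusted p 1.00) and for the called transcript of 1111 bases by 1.08 (standard error 0.37; unadjusted p 0.00886, adjusted p 1.00 in edgeR). For ENSMUST00000055535.8 the difference was -0.030 with a standard error of 0.21 (edgeR adjusted p 1.00). In 21 of the 43 transcripts the mutant change was the larger one (22 without mutant embryo 1 of 16 somites). The difference had an edgeR unadjusted p under 0.05 for 11 of the 43 (25.6%, with or without that embryo). Of all 45394 tested it was 4.47%, a wider set that is not limited to transcripts with a count in all wild-type embryos. Both this count and that of larger mutant changes include the wild-type change by which the 43 were chosen.

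A further group showed large mean changes with no call. Of the 115 transcripts whose mean reached 1000 CPM, 5 had a log2 change of at least 1, all rising, by 1.02 to 1.54. Of all 23871 transcripts of at least 1 CPM, 96.3% had a change of less than 1. The 5 had 554 to 801 bases, and the lengths of the other abundant transcripts were not compared. The edgeR unadjusted p of these 5 was 0.0933 to 0.22, and embryos of one stage differed widely among themselves. Together they took 0.467%, 0.85%, 1.87% and 0.224% of the reads in the embryos of 12 somites and 0.347%, 3.10%, 2.85% and 1.69% in those of 16 somites. Embryos 1 and 4 of 16 somites thus lay within the range of 12 somites, and embryos 2 and 3 of 16 somites lay above it. In the other wild types the share ran from 0.247% to 3.51% at 13 and from 0.404% to 6.11% at 14 somites, where embryo 4 was highest. The mutants of 12 somites had 2.09% and 4.2% and those of 16 somites 3.34% to 4.76%. What sets this share was not tested, and in bulk tissue fewer cells of a type and less RNA per cell cannot be told apart.

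Counts of transcripts whose stages did not overlap depended on how libraries were scaled. On plain CPM all 4 embryos of 16 somites lay above all 4 of 12 somites for 428 transcripts (1.39%) and below for 731 (2.38%). With TMM factors, which scale libraries to the bulk of transcripts, it was 560 (1.82%) above and 587 (1.91%) below, so falling transcripts outnumbered rising ones by far on the first scale and by little on the second. For a transcript without change, 4 against 4 embryos separate in 1 direction or the other with a probability of 0.0286. Both counts therefore include separations that arise by chance.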

How the data were processed

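For each library the authors deposited a transcript table whose columns, per the file headers, are length, effective length, TPM (abundance relative to effective length) and an estimated count of reads. Salmon 1.5.2 and Trim Galore 0.5.0 are named in the submitters' processing notes; the annotation, strandedness and bias correction are not given in the sources used here. The deposited TPM values are printed as they are, and the estimated counts were rounded for tests.

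The 8 libraries were fitted alone in R 4.3.3 with edgeR 4.0.16 (filterByExpr, TMM, glmQLFit and glmQLFTest), with stage as the only factor. Adjusted p is Benjamini-Hochberg over all tested transcripts, called under 0.05. The mutant change and the interaction came from 1 fit of all 27 libraries in 8 groups. CPM is the estimated count scaled to a library of 1000000 reads. Standard errors were derived from the log2 change and its F statistic. The transcripts described are, per direction, those called, filled up to the 5 with the smallest p that reached 1 CPM in the mean of the higher stage; identifiers are given for 2 per direction. Members and lists were chosen with earlier results of these data known. The planned sums per gene and the planned gene lists were not run, because no transcript could be paired with a gene. Alternatives used DESeq2 1.42.0 and limma 3.58.1. The fits were tested on simulated data. Figures were drawn with matplotlib 3.10.9.

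Embryo numbers are shared between the stages, but deviations of same-numbered embryos from their stage means had correlations of -0.024 to 0.023 across transcripts, so they were not treated as pairs.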

Additional observations from a re-analysis of the deposited data

Results flagged for a closer look

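In the embryos of 12 somites the transcript of 7272 bases, ENSMUST00000017694.6, stood at 19.2 CPM in embryo 3 and at 7.35 to 8.89 CPM in the other 3, a gap wide enough to set that embryo apart. Of 28 such comparisons (10 transcripts and 5 measures of the library in the stages of 12 and 16 somites, less those at 0 throughout) this was the only 1 set apart, where chance gives about 1 in 20, or 1.4.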

How the results depend on the processing

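The count of called transcripts, 3 with edgeR on the 8 embryos, was 3 with RLE size factors. It was 10 with no low-count filter (74989 transcripts tested) and 5 at a mean of at least 1 CPM (24091 tested). With DESeq2 it was 94, with limma voom 6, with the 16 wild-type embryos in 4 stages 7 and with all 27 tailbud libraries 9. Each of these included the 3, and the cause of the differences was not tested. With embryo number as a replicate block it was 0, with 1224 at an unadjusted p under 0.05; the numbers do not pair the embryos, and no embryo of 12 somites correlated best with its own number. Leaving out 1 embryo gave 0 to 7, with 7 only without embryo 1 of 16 somites, and the cause was not tested. The interaction, 0, was 232 with DESeq2 (cause not tested), 0 with the replicate block, RLE, a mean of at least 1 CPM and early stages pooled, and 0 to 1 without 1 embryo of 16 somites; the 1 came without wild-type embryo 3, mutant embryo 1 or mutant embryo 4. All 10 transcripts described kept their direction under every alternative that gave them a value. Without wild-type embryo 4 of 14 somites the fit of the other 15 wild-type embryos called 12 in place of 7, the 7 among them (cause not tested). The fits without wild-type embryo 4 of 14 somites or mutant embryo 1 of 16 somites were chosen after seeing the data. None is given without wild-type embryo 2 of 13 somites. The alternatives for gene sums, including those for Y-linked level and effective length, were not run.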
